A study of Rattus norvegicus with 4 samples.

Results

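Klf2, Klf4, Klf6, Klf10 and Klf13 are 5 Kruppel-like factors, some of which many cell types switch on within minutes to hours of a stimulus. All 5 were followed in single cells from the fascia of the rat abdominal midline. The members were chosen by gene symbol, and each stood on 1 of 30560 gene rows (ENSRNOG00000067705 for Klf2, ENSRNOG00000016299 for Klf4, ENSRNOG00000016885 for Klf6, ENSRNOG00000006118 for Klf10 and ENSRNOG00000015822 for Klf13). There were 2 libraries from rats given acupuncture after dysentery had been induced with Salmonella, and 2 libraries from rats with the same dysentery and no acupuncture. All animals thus carried the infection, and uninfected animals were not analysed here. Strain, age, the needling schedule and the time of sampling are not given in the sources used here. Nothing states that the 2 libraries of a group are different rats, and the p-values below therefore refer to variation between libraries, which may be technical. Groups were taken from the titles. The treatment field of each library gives the other group's treatment, and with that field every sign below would be the opposite.

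The family binds GC-rich and CACCC-like DNA through 3 zinc fingers at the end of the protein. In endothelium, KLF2 and KLF4 are induced by laminar flow through the kinase ERK5 and the factor MEF2, and hold the vessel wall in an anticoagulant and anti-inflammatory state. KLF4 also takes part in alternative activation of macrophages, and KLF2 keeps lymphocytes quiescent and able to leave lymphoid organs. KLF6 is induced early after injury in many cells and promotes inflammatory gene expression in mouse macrophages. KLF10 is an early target of TGF-beta, and KLF13 was described as a late activator of the chemokine gene CCL5 in human T cells.

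Klf6 carries most of the results below, so its promoter is shown as the RefSeq table for the build GRCr8 gives it, at chr17:69458479-69458728 on the minus strand. These are the 250 bases before the annotated start, read 5′ to 3′ along the gene. Capitals mark the motifs found by a search on both strands.
Klf6 promoter: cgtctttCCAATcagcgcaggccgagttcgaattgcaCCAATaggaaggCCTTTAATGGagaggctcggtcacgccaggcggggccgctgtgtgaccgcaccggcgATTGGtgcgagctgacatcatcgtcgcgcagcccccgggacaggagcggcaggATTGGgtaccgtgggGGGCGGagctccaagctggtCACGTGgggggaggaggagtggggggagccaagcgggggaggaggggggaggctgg
The window holds 1 CArG box, the site that serum response factor binds at immediate early genes such as Fos and Egr1, 201 to 192 bases before the start. A CArG box was present in 1.497% of 33469 rat promoter windows of the same length. It also holds 4 copies of CCAAT or its reverse complement ATTGG (a motif in 34.0% of windows), 1 GC box GGGCGG (30.5%) and 1 E-box CACGTG (5.59%). Other motifs were searched without a match in this window. These were the MEF2 motif (in 2.96% of windows), the cyclic AMP response core TGACG (18.2%), the AP-1 motif TGANTCA (6.34%), the TATA box TATAAA (12.9%) and the KLF-type motif CACCC (49.2%). None of the motifs found overlap each other, and a match describes the letters and not a bound site. The window listed for Klf4 lies inside its annotated gene and is not printed.

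The deposited libraries held 70499776 and 93897006 unique molecular identifiers (UMIs, the counted transcript molecules) with acupuncture and 53066666 and 79461544 without. Between 5.11% and 16.0% of their cells exceeded 20% mitochondrial UMIs, with the highest share in dysentery replicate 1. After filtering, 32397 of 38282 cells were kept, and lists of marker genes, none of them a KLF gene, placed 30136 of them in a gate. The stromal gate held 16041 cells, the leukocyte gate 13649 and the endothelial gate 446. Among endothelial cells Pecam1 (CD31) was found in 96.0% and Cdh5 (VE-cadherin) in 90.6%, against Ptprc (CD45) in 1.79%. These genes were among the markers that set the gate, so these shares are not independent of it. The endothelial cells also carried Col3a1, a fibroblast collagen, in 54.5% of cells. The endothelial gate was small, with 130 and 190 cells in acupuncture libraries and 47 and 79 in dysentery libraries, and its cells were shallower with acupuncture (median 2929.5 and 4077 UMIs) than without (6755 and 6448 UMIs). Macrophages made up 55.3% and 54.3% of leukocytes in acupuncture libraries and 17.6% and 33.1% in dysentery libraries, so each leukocyte result is given beside that of macrophages alone. Levels below are in CPM, the UMIs of a gene summed over all cells of a gate in a library and scaled to one fixed total. Library sizes were first adjusted with edgeR's TMM factors within the gate unless stated. The summed CPM of marker lists use library totals alone. Changes are log2 fold changes, acupuncture minus dysentery, ± the standard error of the fit. A change or difference was called at a Benjamini-Hochberg adjusted p under 0.05 over all genes tested in that gate with edgeR's quasi-likelihood test.

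The factors were distributed differently over the cell classes, except that Klf6 and Klf13 shared an order. Klf2 and Klf10 were at a higher level in endothelium than in stroma, by 0.83 ± 0.23 (adjusted p = 0.0137) and 1.47 ± 0.22 (adjusted p = 0.00021) on the log2 scale in edgeR with library as a block. Klf4 was lower in endothelium than in stroma (endothelial minus stromal -1.20 ± 0.23, adjusted p = 0.00128), and stroma exceeded leukocytes by 0.81 ± 0.22 (adjusted p = 0.00702). Klf6 was highest in leukocytes, above stroma (stromal minus leukocyte -1.39 ± 0.22, adjusted p = 0.000142) and above endothelium (endothelial minus leukocyte -2.18 ± 0.23, adjusted p = 1.2e-05). Klf13 had -0.57 ± 0.15 for stromal minus leukocyte (adjusted p = 0.00534) and -1.15 ± 0.19 for endothelial minus leukocyte (adjusted p = 0.000409). Many genes differ between such classes: 39.3% of all genes tested were called between endothelium and stroma, 43.3% between endothelium and leukocytes and 67.7% between stroma and leukocytes. Leaving out 1 library ended some of these calls. For Klf2 in endothelium against stroma the difference was 0.61 (adjusted p = 0.0661) without dysentery replicate 1, and for Klf4 in stroma against leukocytes 0.48 (adjusted p = 0.0640) without dysentery replicate 2. Scaling by library totals alone, in place of TMM, raised endothelium against either other class by between 0.315 and 0.329 on the log2 scale. With it the lower levels in endothelium than in stroma of Klf6 (-0.47, adjusted p = 0.103, against -0.79 and 0.0146 with TMM) and Klf13 (-0.26, adjusted p = 0.339, against -0.59 and 0.0294) were no longer called, and Klf2 was called higher in endothelium than in leukocytes (0.64, adjusted p = 0.0278, against 0.33 and adjusted p = 0.280 with TMM).

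**Figure D1:**
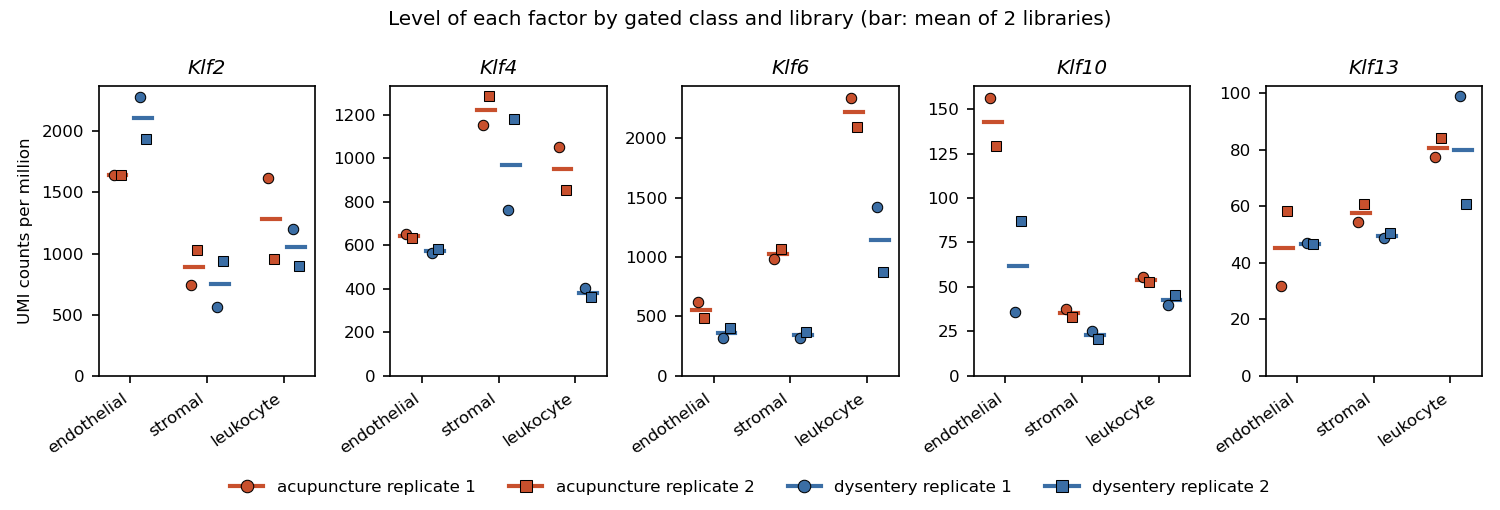
Level of each factor in CPM (y axis, from 0) in endothelial, stromal and leukocyte gated cells. Each point is 1 library, acupuncture left of dysentery in each class, and bars are the mean of 2 libraries. Stromal Klf6 separates the groups most clearly, with acupuncture libraries at 981 and 1072 CPM and dysentery libraries at 322 and 370 CPM.

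Within these classes the level varied further by cell type. Over the 6 types with at least 30 cells in every library, Klf2 was highest in neutrophils, at 2157 to 4672 CPM over the 4 libraries (not TMM-scaled, as in the other values of this paragraph). Its range there did not overlap that of endothelium, the next type, at 1639 to 2122 CPM. The ranges of Klf2 in endothelium, NK cells, T cells and macrophages overlapped from each type to the next, and fibroblasts lay below macrophages at 578 to 978 CPM. Klf4 had 2 tiers. Fibroblasts (786 to 1220 CPM), macrophages (408 to 1016 CPM) and endothelium (523 to 651 CPM) overlapped in turn, and NK cells (132 to 389 CPM), T cells and neutrophils (101 to 204 CPM) lay below endothelium. Klf6 ran in the order NK cells, T cells, neutrophils, macrophages, fibroblasts and endothelium. Each of these overlapped its neighbour, at 1872 to 2943 CPM in NK cells and 298 to 623 CPM in endothelium. Klf10 was by its mean highest in endothelium at 33.5 to 156 CPM, which overlapped macrophages at 40.7 to 58.0 CPM. By its mean it was lowest in NK cells at 21.6 to 32.4 CPM, which overlapped fibroblasts at 20.1 to 39.9 CPM. Klf13 was a lymphocyte-weighted gene. NK cells (137 to 238 CPM) and T cells (108 to 190 CPM) overlapped each other and lay above neutrophils, macrophages, fibroblasts and endothelium, whose highest library had 91.8 CPM.

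The scarce cell types had too few cells for a test and are given only where a library held at least 30 cells, scaled by library totals and not by TMM. Mast cells of acupuncture replicate 2 (45 cells) had 3967 CPM of Klf6 and only 5.74 CPM, a single UMI, of Klf13. Pericytes and smooth muscle cells of acupuncture replicate 1 (35 cells) had 1404 CPM of Klf6. B cells of dysentery replicate 1 (82 cells) had 2804 CPM of Klf2 and 169 CPM of Klf13, against 540 CPM of Klf6. In dendritic cells Klf4 was at 934 CPM in acupuncture replicate 2 (64 cells), against 133 and 168 CPM in dysentery replicates 1 and 2 (55 and 56 cells). Klf6 in those same cells was at 2463 CPM in acupuncture replicate 2, against 534 and 741 CPM in the dysentery libraries. Klf2 there was at 1052 CPM in acupuncture replicate 2, against 364 and 373 CPM in the dysentery libraries. In monocytes Klf4 was at 1166 and 755 CPM in acupuncture libraries (77 and 46 cells), against 1009 CPM in dysentery replicate 1 (97 cells), and these values overlapped.

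**Figure D2:**
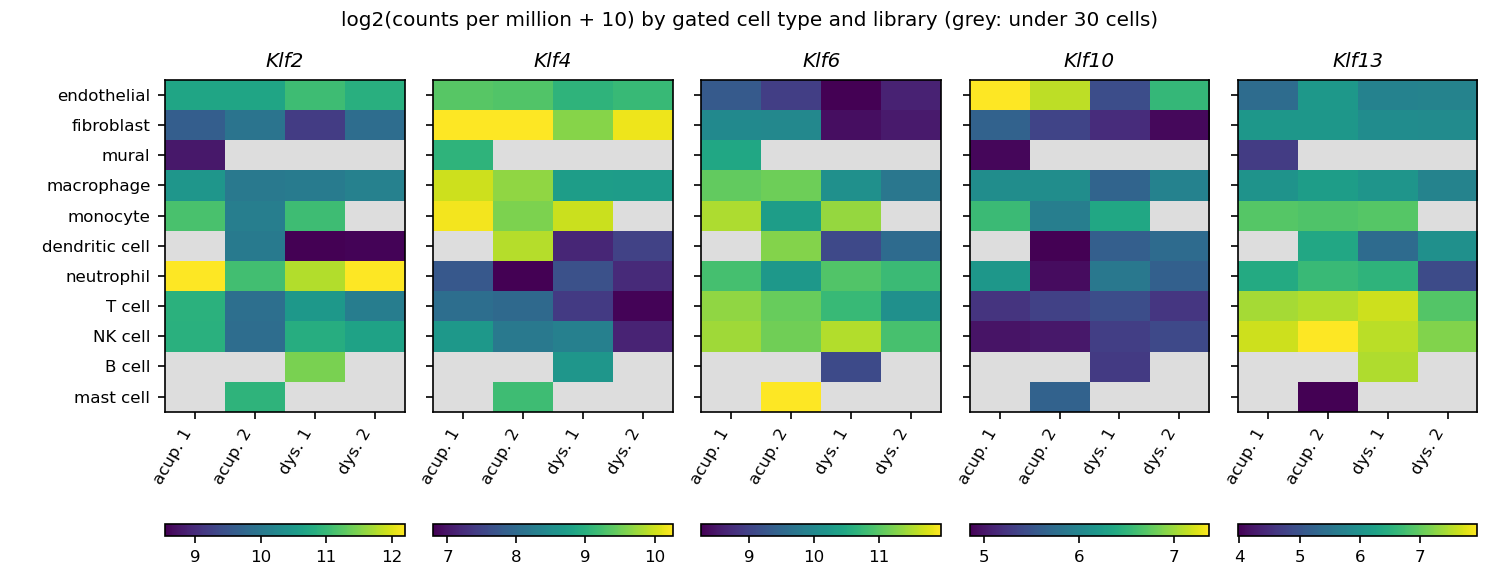
Level of each factor as log2(CPM + 10) by gated cell type (rows) and library (columns, acupuncture left of dysentery), with its own colour scale per factor and library totals as the only scaling. Grey marks sums of under 30 cells. By their mean, among the 6 types with at least 30 cells in every library, neutrophils lead for Klf2 and NK and T cells for Klf13. Endothelium leads for Klf10 by its mean only. Its libraries (33.5 to 156 CPM) overlap those of macrophages (40.7 to 58.0 CPM).

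The change with acupuncture was tested gate by gate. Klf6 rose in stroma, Klf4 rose in leukocytes, and both rose in macrophages. In stroma 1 of the 5 factors was called, where 1.92% of all genes tested were called and 1.47% were called and higher. In leukocytes 1 of 5 was called, against 1.18% of all genes (1.11% called and higher), and in macrophages 2 of 5, against 6.98% (4.75% called and higher). In endothelium edgeR called 0 of 5, against 1.11% of all genes (0.766% called and higher), with an unadjusted p under 0.05 for 3 of the 5, and DESeq2 called 0. None of the factors was called lower in any gate tested.

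**Figure D3:**
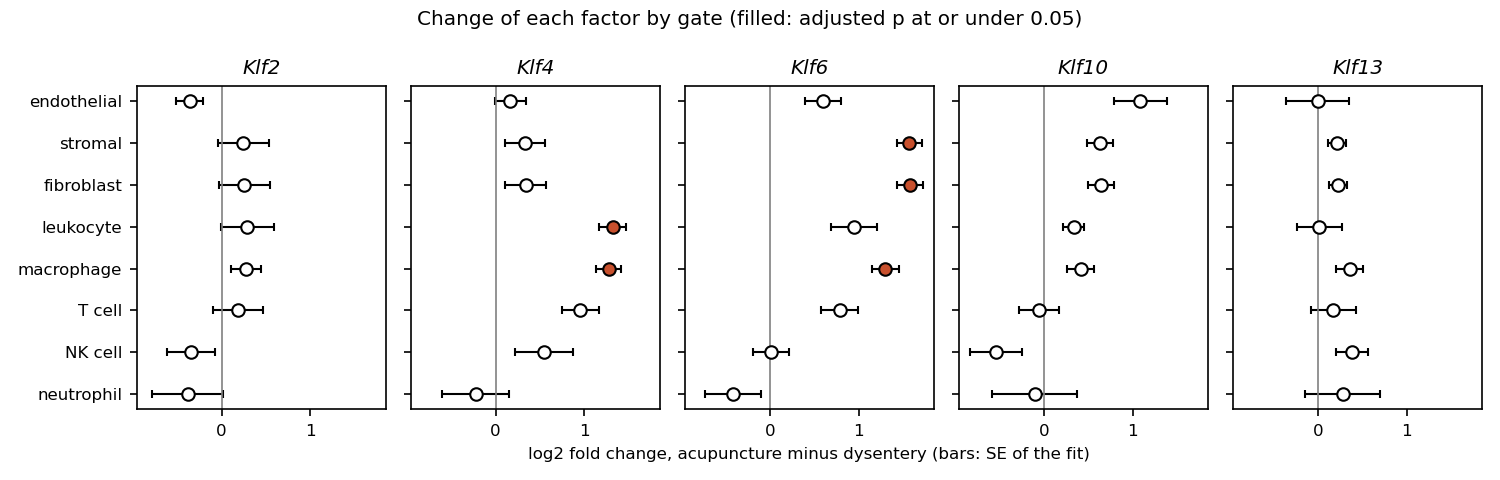
Log2 fold change of each factor, acupuncture minus dysentery (x axis), in 8 gates (rows), with bars for the standard error of the fit. Filled points have an adjusted p at or under 0.05, and they are Klf6 in stroma, fibroblasts and macrophages and Klf4 in leukocytes and macrophages.

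Klf6 was the factor that rose in stroma. It had 981 and 1072 CPM in acupuncture libraries, against 322 and 370 CPM in dysentery libraries. Both acupuncture libraries lay far above both dysentery libraries, with means of 1027 ± 64.6 and 346 ± 33.6 CPM (SD, n = 2 each). The change was 1.57 ± 0.14 with an adjusted p of 0.0127 in edgeR. In fibroblasts alone, which make up nearly all of the gate, it was 1.58 ± 0.14 (adjusted p = 0.0131, against 1.78% of all genes called). The call was lost without acupuncture replicate 1 (adjusted p = 0.0699) or without acupuncture replicate 2 (adjusted p = 0.0962), though the change stayed between 1.47 and 1.68 whichever library was left out.

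The rise of Klf6 came with a minority of fibroblasts that held many Klf6 molecules. With every cell thinned to 2000 UMIs, 11.7% (95% exact binomial interval 10.7 to 12.9) and 12.9% (11.8 to 14.1) of fibroblasts had 5 or more UMIs of Klf6 in acupuncture libraries. In dysentery libraries it was 0.389% (0.178 to 0.738) and 0.757% (0.546 to 1.02). These intervals cover counting error only, and thinning left out 406 and 392 shallower fibroblasts of acupuncture libraries and 254 and 450 of dysentery libraries. The share of fibroblasts with any Klf6 UMI differed less as a ratio, at 55.3% and 56.1% in acupuncture libraries and 44.0% and 47.9% in dysentery libraries after thinning, with a two-sided exact permutation p of 0.333, the smallest that 2 libraries against 2 can give. For stroma as a whole that share averaged 55.9% ± 0.420 with acupuncture and 46.0% ± 2.68 without (SD, n = 2 each). Without thinning it was 74.5% and 72.5% in acupuncture libraries and 76.7% and 77.7% in dysentery libraries, which goes against the CPM, so no order is read from the unthinned share.

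**Figure D4:**
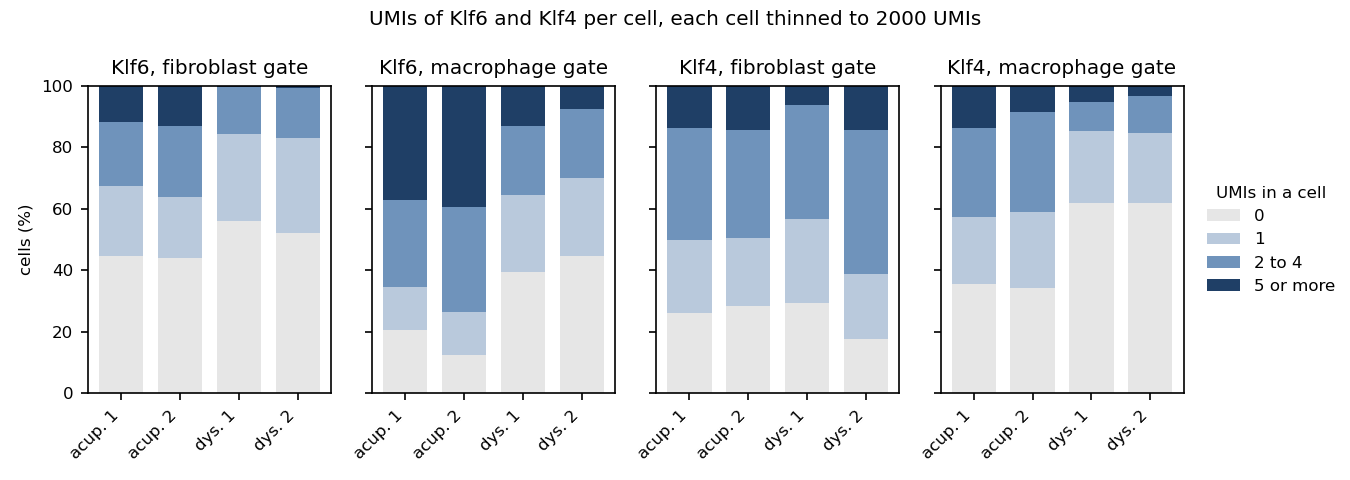
Share of cells (y axis, percent) with 0, 1, 2 to 4, or 5 and more UMIs of Klf6 or Klf4 in fibroblast and macrophage gated cells, each cell thinned to 2000 UMIs, with acupuncture libraries left of dysentery libraries. The darkest band of Klf6 in fibroblasts is 11.7% and 12.9% in acupuncture libraries and 0.389% and 0.757% in dysentery libraries.

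Subsets of the fibroblasts differed in how much Klf6 they held, and these splits were chosen after seeing the data. Fibroblasts with UMIs of both Cd34 and Pdgfra, the surface markers of telocytes named in the study's title, had 1116 and 1151 CPM of Klf6 in acupuncture libraries, against 326 and 373 CPM in dysentery libraries (1.70 ± 0.14, adjusted p = 0.00311, 3.17% of genes called). Has1, a hyaluronan synthase gene, was itself higher with acupuncture in stroma (2.26 ± 0.29, adjusted p = 0.0326), and 45.1% and 43.5% of fibroblasts had a UMI of it in acupuncture libraries, against 26.9% and 35.3% in dysentery libraries. Fibroblasts with a Has1 UMI had 1453 and 1406 CPM of Klf6 in acupuncture libraries, against 344 and 402 CPM in dysentery libraries (1.94 ± 0.15, adjusted p = 0.00121, 5.24% of genes called). Fibroblasts without one had 345 and 539 CPM in acupuncture libraries, against 309 and 344 CPM in dysentery libraries. There the change was 0.44 ± 0.23 and was not called (adjusted p = 0.443, 0.214% of genes called). Cells with a Has1 UMI were also deeper, with medians of 9931 and 13545 UMIs in acupuncture libraries and 9298 and 7798 UMIs in dysentery libraries, against 5328 and 5482 UMIs (acupuncture) and 6644 and 5969.5 UMIs (dysentery) without one. Dysentery libraries thus showed almost the same Klf6 with and without Has1, and acupuncture libraries did not.

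The size of the Klf6 change in fibroblasts differed with mitochondrial content, and in macrophages, given below, the order was the other way. In cells at or below their library's median of mitochondrial UMIs, Klf6 was at 1297 and 1270 CPM in acupuncture libraries, against 313 and 374 CPM in dysentery libraries (1.90 ± 0.14, adjusted p = 0.00426, 3.04% of genes called). In the cells above the median it was at 489 and 778 CPM in acupuncture libraries, against 329 and 361 CPM in dysentery libraries (0.88 ± 0.25, adjusted p = 0.194, 0.271% called). RNA of other cells was low in the stromal gate: the 8 macrophage markers summed to 109 and 91.7 CPM in acupuncture libraries and 77.5 and 43.4 CPM in dysentery libraries, against at least 22900 CPM in macrophages themselves, and none of the 8 was at 0. The 6 neutrophil markers summed to 76.9 and 47.2 CPM in acupuncture libraries and 234 and 12.8 CPM in dysentery libraries. The part of Has1, depth, mitochondrial content and RNA of other cells in the Klf6 result was not tested.

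**Figure D5:**
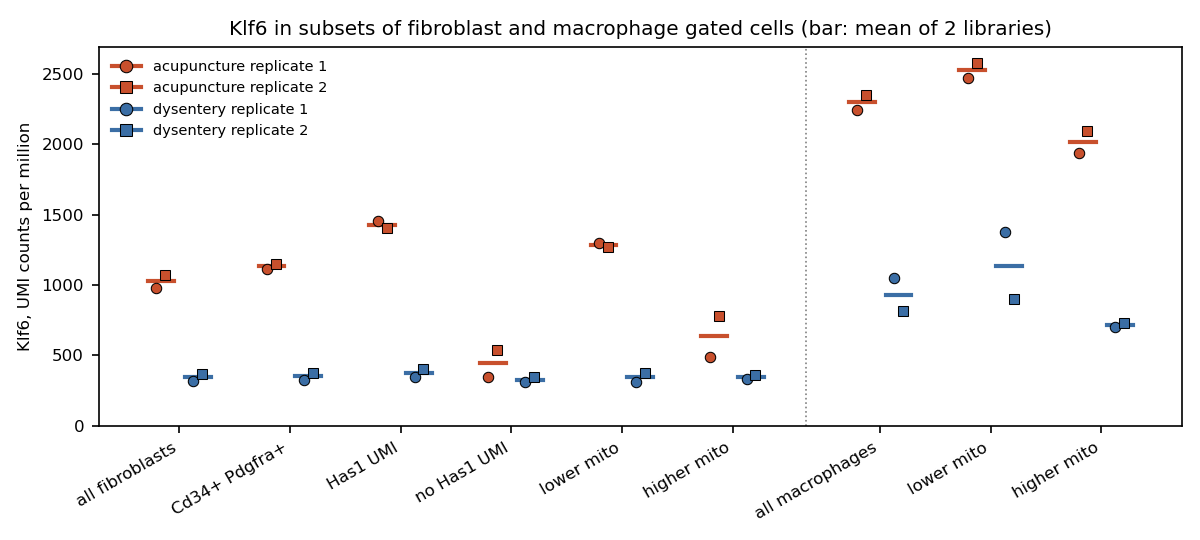
Klf6 in CPM (y axis, from 0) in subsets of fibroblast (left of the dotted line) and macrophage gated cells, 1 point per library, acupuncture left of dysentery in each subset, with bars at the mean of 2 libraries. Fibroblasts without a Has1 UMI sit at 345 and 539 CPM in acupuncture libraries and at 309 and 344 CPM in dysentery libraries, and those with one at 1453 and 1406 CPM in acupuncture libraries.

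The other 4 factors were not called in stroma. Klf2 had 741 and 1032 CPM in acupuncture libraries, against 561 and 936 CPM in dysentery libraries, and the groups overlapped (0.24 ± 0.29, adjusted p = 0.687). Klf4 had 1154 and 1286 CPM in acupuncture libraries, against 762 and 1179 CPM in dysentery libraries, where only dysentery replicate 1 stood lower (0.33 ± 0.23, adjusted p = 0.485). Klf10 had 37.8 and 33.1 CPM in acupuncture libraries, against 25.3 and 20.6 CPM in dysentery libraries. Its groups did not overlap, and the change of 0.63 ± 0.14 was not called by edgeR (adjusted p = 0.104) but was by DESeq2 (0.63, adjusted p = 0.0185). Among fibroblasts with Cd34 and Pdgfra, Klf10 was called (0.73 ± 0.14, adjusted p = 0.0491). Klf13 had 54.5 and 60.7 CPM in acupuncture libraries, against 48.6 and 50.4 CPM in dysentery libraries (0.22 ± 0.10, adjusted p = 0.307).

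Klf4 and Klf6 rose together in macrophages, a gate that does not separate resident from recruited cells. Klf4 had 1061 and 848 CPM in acupuncture macrophages, against 394 and 396 CPM in dysentery macrophages. Each acupuncture library held more than either dysentery library, with means of 955 ± 150 and 395 ± 1.78 CPM (SD, n = 2 each) and a change of 1.27 ± 0.14 (edgeR adjusted p = 0.00898). Klf6 had 2243 and 2354 CPM in acupuncture macrophages, against 1049 and 813 CPM in dysentery macrophages. Its means were 2298 ± 78.5 and 931 ± 167 CPM (SD, n = 2 each), with a change of 1.30 ± 0.15 (adjusted p = 0.0104). Both calls held without each library in turn, with DESeq2 and with the replicate number as a block. They also held in macrophages with lower mitochondrial content (Klf4 1.15, adjusted p = 0.0224 and Klf6 1.15, adjusted p = 0.0483, where 2.82% of genes were called) and with higher content (Klf4 1.41, adjusted p = 0.00436 and Klf6 1.4997, adjusted p = 0.00284, where 6.47% were called).

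Single macrophages showed the same shift. After thinning to 2000 UMIs, 64.5% and 65.7% of macrophages had a Klf4 UMI in acupuncture libraries, against 38.2% and 37.9% in dysentery libraries (two-sided exact permutation p = 0.333, the smallest possible). Without thinning these shares were 87.3% and 93.7% in acupuncture libraries, against 65.8% and 68.7% in dysentery libraries, and thinning left out 17 and 6 acupuncture macrophages and 14 and 31 dysentery macrophages. The lowest shares among the cell types tested were found in T cells, at 25.1% ± 2.00 with acupuncture and 16.4% ± 3.44 without, and in neutrophils, at 19.3% ± 2.53 with acupuncture and 18.3% ± 5.27 without (SD, n = 2 each). All of these shares were taken at the same depth per cell, and the part of free RNA in the droplets was not tested. Macrophages with 5 or more Klf6 UMIs made up 36.9% and 39.3% in acupuncture libraries, against 13.1% and 7.38% in dysentery libraries. Those with 5 or more Klf4 UMIs made up 13.6% and 8.43% in acupuncture libraries, against 5.05% and 3.36% in dysentery libraries. A macrophage held on average 2.34 and 2.42 of the 5 factors in acupuncture libraries and 1.81 in both dysentery libraries, while fibroblasts held 2.04 in both acupuncture libraries and 1.85 and 2.12 in dysentery libraries.

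The marker content of the macrophage gate differed between the groups. The 8 macrophage markers, which set the gate, summed to 32840 and 28460 CPM in acupuncture macrophages and 25240 and 22900 CPM in dysentery macrophages, with none at 0. The 5 monocyte markers summed to 150 and 171 CPM in acupuncture macrophages and 405 and 478 CPM in dysentery macrophages, with 1 of 5 at 0 in each library. The 8 fibroblast markers summed to 324 and 432 CPM in acupuncture macrophages and 715 and 490 CPM in dysentery macrophages. The part of these marker differences in the Klf4 and Klf6 results was not tested.

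The remaining factors were not called in macrophages. Klf2 had 1463 and 1073 CPM in acupuncture macrophages, against 1004 and 1096 CPM in dysentery macrophages, and the groups overlapped (0.27 ± 0.17, adjusted p = 0.376). Klf10 had 60.4 and 60.3 CPM in acupuncture macrophages, against 38.8 and 51.1 CPM in dysentery macrophages (0.41 ± 0.15, adjusted p = 0.157). Klf13 had 57.1 and 65.7 CPM in acupuncture macrophages, against 53.7 and 42.9 CPM in dysentery macrophages (0.36 ± 0.15, adjusted p = 0.211). For neither Klf10 nor Klf13 did the groups overlap, which is a description only, as the share of all macrophage genes that separate likewise is not given.

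Over all leukocytes Klf4 rose as well. It had 1051 and 855 CPM in acupuncture leukocytes, against 402 and 363 CPM in dysentery leukocytes, or 953 ± 139 and 382 ± 28.0 CPM (SD, n = 2 each). The change of 1.32 ± 0.15 had an adjusted p of 0.0491 in edgeR, just inside the threshold, and was not called without acupuncture replicate 1 (adjusted p = 0.227) or 2 (adjusted p = 0.250). The share of macrophages differed between the groups, as given above, and its part in the leukocyte change was not tested. Within macrophages alone the change of Klf4 was 1.27. Neutrophil markers summed to 10130 and 3381 CPM in acupuncture leukocytes and 14180 and 3089 CPM in dysentery leukocytes, and their part was not tested. Klf6 had 2339 and 2098 CPM in acupuncture leukocytes, against 1423 and 870 CPM in dysentery leukocytes, without overlap, and its change of 0.95 ± 0.26 was not called by edgeR (adjusted p = 0.144) but was by DESeq2 (adjusted p = 0.00873). Klf2 (0.29, adjusted p = 0.612), Klf10 (0.34, adjusted p = 0.198) and Klf13 (0.01, adjusted p = 0.980) were not called.

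Lymphocytes and neutrophils gave no call in edgeR. In T cells Klf4 had 256 and 252 CPM in acupuncture libraries, against 158 and 103 CPM in dysentery libraries, and the change was 0.95 ± 0.21 (adjusted p = 0.111). Klf6 there had 2617 and 2268 CPM in acupuncture libraries, against 1732 and 1096 CPM in dysentery libraries (0.79 ± 0.21, adjusted p = 0.194). EdgeR called 0 of the 5 factors in T cells (0.515% of all genes), with an unadjusted p under 0.05 for these 2, and DESeq2 called both (adjusted p = 0.0257 for Klf4 and 0.0417 for Klf6). Without dysentery replicate 1 edgeR called both too, Klf4 at 1.31 (adjusted p = 0.00788) and Klf6 at 1.16 (adjusted p = 0.00648). In NK cells (0.812% of all genes called) and neutrophils (0.0547%) both tools called 0 of 5, and no factor had an unadjusted p under 0.05. Klf6 in NK cells had 2793 and 2271 CPM in acupuncture libraries, against 3044 and 1961 CPM in dysentery libraries, which overlapped (0.02 ± 0.20). Klf2 in neutrophils had 4785 and 2032 CPM in acupuncture libraries, against 3625 and 5272 CPM in dysentery libraries, and the pair of acupuncture libraries spanned more than the groups differed (-0.38 ± 0.40). Klf13 in T cells had 162 and 177 CPM in acupuncture libraries, against 191 and 107 CPM in dysentery libraries (0.17 ± 0.25, adjusted p = 0.889). Ccl5, the target for which KLF13 was named in human T cells, had 7296 and 1793 CPM in acupuncture T cells, against 8739 and 7778 CPM in dysentery T cells (-0.86 ± 0.49, adjusted p = 0.644).

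Endothelium, where KLF2 and KLF4 are best known, showed no called change of any factor. Klf2 had 1643 and 1645 CPM in acupuncture endothelium, against 2285 and 1937 CPM in dysentery endothelium. The acupuncture libraries lay below the dysentery libraries, with means of 1644 ± 1.58 and 2111 ± 246 CPM (SD, n = 2 each), but the change of -0.36 ± 0.15 did not pass (adjusted p = 0.306). Klf4 had 652 and 632 CPM in acupuncture endothelium, against 563 and 583 CPM in dysentery endothelium (0.16 ± 0.17, adjusted p = 0.738). Klf6 had 625 and 487 CPM in acupuncture endothelium, against 321 and 405 CPM in dysentery endothelium (0.60 ± 0.21, adjusted p = 0.218). In all 3 of these factors the groups did not overlap. The share of all endothelial genes that separate likewise is not given, so this is a description only.

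Klf10 had the largest estimated difference of the 5 in endothelium. It had 156 and 129 CPM (108 and 133 UMIs) in acupuncture endothelium, against 36.1 and 87.1 CPM (10 and 43 UMIs) in dysentery endothelium. Its groups did not overlap either, with means of 143 ± 19.0 and 61.6 ± 36.1 CPM (SD, n = 2 each), and dysentery replicate 1 stood lowest on 47 cells. The change of 1.09 ± 0.30 was not called (adjusted p = 0.118), but was without the filter on low counts (1.08, adjusted p = 0.00764). It was 0.68 (adjusted p = 0.269) without dysentery replicate 1 and 1.95 (adjusted p = 0.000316) without dysentery replicate 2, and among cells of at least 3000 UMIs it was 0.99 ± 0.30 (adjusted p = 0.192). After thinning, 24.4% ± 3.35 of endothelial cells had a Klf10 UMI with acupuncture and 11.01% ± 1.07 without (SD, n = 2 each, two-sided exact permutation p = 0.333, the smallest possible). Thinning left out 44 and 40 acupuncture cells and 8 and 11 dysentery cells, and without it the shares were 41.5% and 35.3% in acupuncture libraries, against 19.1% and 32.9% in dysentery libraries. Klf13 had 31.8 and 58.3 CPM in acupuncture endothelium, against 46.9 and 46.6 CPM in dysentery endothelium, and did not separate the groups (-0.00 ± 0.36, adjusted p = 0.998).

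The cells inside the endothelial gate differed between the groups in other ways. The 8 mural markers summed to 410 and 107 CPM in acupuncture endothelium and 16.8 and 11.5 CPM in dysentery endothelium, with 0 and 1 of the 8 at 0 in acupuncture libraries and 4 and 6 in dysentery libraries. The 5 lymphatic markers summed to 49.1 and 266 CPM in acupuncture endothelium and 6.70 and 0 CPM in dysentery endothelium, where 4 and 5 of the 5 were at 0. The 8 macrophage markers summed to 157 and 113 CPM in acupuncture endothelium and 43.6 and 34.5 CPM in dysentery endothelium. The part of mural, lymphatic and macrophage RNA in the endothelial values was not tested.

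Whether the classes changed differently was tested directly. Klf6 changed less in endothelium than in stroma, by -0.93 ± 0.23 (adjusted p = 0.0289 in edgeR with library as a block, where 1.33% of genes were called). That call was lost without acupuncture replicate 2 (adjusted p = 0.616), without dysentery replicate 2 (adjusted p = 0.0970), and with the fibroblast gate in place of stroma (-0.93, adjusted p = 0.0513, where 0.91% of genes were called). Klf4 changed less in endothelium than in leukocytes, by -1.15 ± 0.22 (adjusted p = 0.00342, 1.38% of genes called), and less than in macrophages, by -1.10 ± 0.22 (adjusted p = 0.0146, 1.29% called). Without acupuncture replicate 1 the difference from leukocytes was not called (adjusted p = 0.165). Klf4 in stroma against leukocytes differed by -0.94 ± 0.32, which was not called (adjusted p = 0.277, 0.92% of genes called). Without dysentery replicate 1 that difference was -1.33 and was called. Klf2, Klf10 and Klf13 gave no called difference between any pair of classes with all libraries. For Klf2, whose estimate was below 0 in endothelium and above 0 in the other classes, the endothelial minus stromal difference was called without dysentery replicate 2 (-1.07, adjusted p = 0.00100, against -0.58 and 0.388 with it). Its endothelial minus leukocyte difference was called without dysentery replicate 1 (-0.71, adjusted p = 0.0174, against -0.61 and 0.317 with it).

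Klf6 rose within a wider early response. Of 23 immediate early genes tested, which cells transcribe within minutes of a stimulus, 15 rose in stroma and none fell, with a median change of 1.97 against -0.00 for all genes tested there. Of all genes tested in stroma, 1.47% were called and higher. Atf3, a stress-induced factor, had 773 and 956 CPM in acupuncture stroma, against 44.8 and 37.3 CPM in dysentery stroma (4.40 ± 0.19, adjusted p = 0.00235). Csrnp1 had 94.1 and 113 CPM in acupuncture stroma, against 11.8 and 9.84 CPM in dysentery stroma (3.26, adjusted p = 0.00238). Egr1, a zinc-finger factor with several CArG boxes in other mammals, had 1730 and 2037 CPM in acupuncture stroma, against 222 and 211 CPM in dysentery stroma (3.12 ± 0.16, adjusted p = 0.0024). Jun rose by 2.57 ± 0.17 and Fos, its partner in AP-1, by 1.75 ± 0.27, near the change of Klf6. Srf, the CArG-binding factor itself, had 18.3 and 20.9 CPM in acupuncture stroma, against 15.5 and 12.8 CPM in dysentery stroma and was not called (0.48 ± 0.14, adjusted p = 0.170).

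The same list was followed in the other gates. Of all genes tested, 6.98% were called in macrophages, 1.11% in endothelium and 1.18% over all leukocytes. It was 0.515% in T cells, 0.812% in NK cells and 0.0547% in neutrophils. In macrophages 19 of 23 rose, with a median of 1.75 against 0.00 for all genes. Maff led there (2.97 ± 0.42, adjusted p = 0.0155), and Fosb rose by 1.69 ± 0.12 (adjusted p = 0.00419) and Srf by 0.65 ± 0.14 (adjusted p = 0.0482). In endothelium 2 of 19 rose, Egr1 (1.02 ± 0.17, adjusted p = 0.0112) and Atf3 (0.93 ± 0.21, adjusted p = 0.0480), with a median of 0.52, and DESeq2 called 1 of the 19. In T cells 6 of 22 rose, led by Atf3 (2.46 ± 0.15, adjusted p = 0.000673). In NK cells 1 of 22 rose, Myc (1.08 ± 0.17, adjusted p = 0.0281), with a median of -0.12 and 9 of the 22 above 0. In neutrophils edgeR and DESeq2 called 0 of 17, with an unadjusted p under 0.05 for 6, a median of -0.20 and 3 of the 17 above 0. Over all leukocytes edgeR called 0 of 23 (median 0.94), with an unadjusted p under 0.05 for 17, and DESeq2 called 15. Many of these genes are also induced by enzymatic dissociation of tissue, as are heat shock genes, and Klf2, Klf4 and Klf6 themselves are known from such signatures in mouse tissue. Of 10 heat shock genes tested, 6 rose in stroma (median 1.35), among them Dnajb4 (2.20 ± 0.16) and Hsp90aa1 (1.49 ± 0.13), and 5 rose in macrophages (median 1.00), led by Hspb1 (2.92 ± 0.64, adjusted p = 0.0481). Of all genes tested, 1.47% were called and higher in stroma and 4.75% in macrophages. The part of the immediate early and heat shock genes in the KLF changes was not tested.

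Other members of the family were called in stroma and in macrophages, where 1.92% and 6.98% of all genes tested were called. In stroma 1 of 9 other KLF genes was called, Klf11, a TGF-beta-induced relative of Klf10, which fell to 15.8 and 16.0 CPM in acupuncture stroma, against 24.9 and 24.8 CPM in dysentery stroma (-0.65 ± 0.10, adjusted p = 0.0497). In the fibroblast gate it was not called (-0.64 ± 0.10, adjusted p = 0.0531). In macrophages 2 of 6 rose. Klf9, a glucocorticoid-induced factor, had 60.7 and 65.8 CPM in acupuncture macrophages, against 15.4 and 14.5 CPM in dysentery macrophages (2.09 ± 0.13, adjusted p = 0.00379). Klf16 had 35.1 and 40.4 CPM in acupuncture macrophages, against 15.7 and 16.7 CPM in dysentery macrophages (1.22 ± 0.14, adjusted p = 0.0094). The macrophage estimate for Klf9 was larger than those given above for Klf4 and Klf6. EdgeR did not call Klf9 in T cells (0.94 ± 0.18, adjusted p = 0.0755) or NK cells (1.27 ± 0.25, adjusted p = 0.0627). DESeq2 called 1 of 5 other KLF genes in T cells and 1 of 4 in NK cells. In endothelium edgeR called 0 of 4 and in leukocytes 0 of 8, with an unadjusted p under 0.05 for 0 and 3 and with DESeq2 calls for 0 and 2. Of the related SP genes, edgeR and DESeq2 called 0 of 3 in endothelium, 0 of 5 in stroma and 0 of 4 in leukocytes and in macrophages, and none had an unadjusted p under 0.05.

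Genes that act upstream of KLF2 and KLF4 in endothelium, or with KLF proteins as corepressors, were also followed. Of the flow-sensing and ERK5-MEF2 genes edgeR called 0 of 10 in endothelium, 0 of 14 in stroma, 0 of 14 in leukocytes and 0 of 13 in macrophages, with an unadjusted p under 0.05 for 1, 3, 4 and 2, and DESeq2 called 0 in each. Of 7 corepressor and coactivator genes edgeR and DESeq2 called 0 in each of the 4 gates, with an unadjusted p under 0.05 for 0, 1, 1 and 0. The TGF-beta pathway gave 1 call of 9 in endothelium, where 1.11% of all genes tested were called. That call rests on the few cells of the endothelial gate, and a link to Klf10 was not tested. Smad7, the feedback inhibitor that TGF-beta induces, had 120 and 99.2 CPM in acupuncture endothelium, against 43.3 and 20.3 CPM in dysentery endothelium (1.90 ± 0.33, adjusted p = 0.0122), but DESeq2 called 0 of the 9. EdgeR called 0 of 12 of these genes in stroma, 0 of 12 in leukocytes and 0 of 11 in macrophages, with an unadjusted p under 0.05 for 4, 1 and 2, and DESeq2 called 2, 0 and 0.

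Known targets of the factors were read in the same gates. Of 10 endothelial targets of KLF2 and KLF4, edgeR and DESeq2 called 0 in endothelium, with an unadjusted p under 0.05 for 2. Nos3, the endothelial nitric oxide synthase that KLF2 induces, had 56.4 and 76.8 CPM in acupuncture endothelium, against 46.9 and 22.3 CPM in dysentery endothelium (1.09 ± 0.36, adjusted p = 0.208). Vcam1, an adhesion molecule that KLF2 holds down, had 53.5 and 69.0 CPM in acupuncture endothelium, against 46.9 and 166 CPM in dysentery endothelium (-0.90 ± 0.38, adjusted p = 0.303). Thbd, thrombomodulin, did not differ by more than its error there (0.04 ± 0.19). Sele, an adhesion molecule on the same list, had 308 and 411 CPM in acupuncture endothelium, against 43.3 and 302 CPM in dysentery endothelium (0.95 ± 0.45, adjusted p = 0.366). The estimates of the 10 genes lay on both sides of 0, with 5 above it and a median of 0.01. Icam1, another adhesion molecule on this list, rose in stroma (1.99 ± 0.16, adjusted p = 0.0110). In macrophages Thbd (0.95 ± 0.13), Vcam1 (0.98 ± 0.19) and Icam1 (1.75 ± 0.24) rose, 3 of 6, and the same 3 of 8 rose over all leukocytes. Of all genes tested, 4.75% were called and higher in macrophages and 1.11% over all leukocytes. In endothelium KLF2 and KLF4 are known to raise Thbd and lower Vcam1, and both genes were higher in these macrophages. Kdr, a target on the list, was also a marker of the endothelial gate.

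Targets outside the vessel wall were fewer. In macrophages 6.98% of all genes tested were called. Of the genes linked to KLF4 in alternative macrophage activation, 1 of 4 rose in macrophages, the scavenger receptor Cd163, at 749 and 806 CPM in acupuncture macrophages against 394 and 482 CPM in dysentery macrophages (0.83 ± 0.14, adjusted p = 0.0237). Mrc1, the mannose receptor, differed by 0.49 and was not called (adjusted p = 0.0746). Cd163 and Mrc1 were among the 8 markers that gated macrophages, so their levels in that gate are not independent of the gate. Of 3 lymphocyte trafficking targets of KLF2 tested in macrophages, Itgb7, an integrin chain, fell to 24.04 and 27.4 CPM in acupuncture macrophages, against 51.1 and 70.0 CPM in dysentery macrophages (-1.24 ± 0.17, adjusted p = 0.0152). In T cells, where these targets are best known, edgeR and DESeq2 called 0 of 4, with an unadjusted p under 0.05 for 2.

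The genes most like each factor across cell types were named by correlation over 33 sums of 11 cell types, as a description in which sums of a library share its depth. Klf6 went with the early genes Fosb (r = 0.903) and Fos (r = 0.861) and with Tnfaip3 (r = 0.845), which codes for the NF-kB inhibitor A20. Klf2 went with Cd274 (PD-L1, r = 0.833), Rnf213 (r = 0.785) and Cflar (r = 0.781). Klf4 went with Rrbp1 (r = 0.813), Hdlbp (r = 0.795) and Tubb6 (r = 0.793). Klf13 went with Cd69, an activation marker of lymphocytes (r = 0.847), Chd2 (r = 0.828) and Fnbp4 (r = 0.822). Klf10 had weaker matches, Crybg3 (r = 0.743), the fibronectin receptor chain Itga5 (r = 0.729) and the endothelial receptor Tie1 (r = 0.697), itself a marker of the endothelial gate. Among themselves the 5 factors were hardly alike, with r between -0.229 and 0.3.

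Within single cells the pairs of factors differed in how often they were found together. Cells with UMIs of both Klf4 and Klf6 were between 1.05 and 1.18 times as frequent among fibroblasts, and between 1.04 and 1.17 times among macrophages, as the product of their shares gives, over the 4 libraries after thinning to 2000 UMIs. Of the pairs of Klf10 with another of the 5 factors, only Klf6 and Klf10 among macrophages lay above 1 in every library, at 1.03 to 1.16. The others lay on both sides of 1. Ratios were 0.806 to 1.02 for Klf4 and Klf10 among fibroblasts and 0.906 to 1.09 for Klf2 and Klf10 among macrophages. For Klf6 and Klf10 among endothelial cells they were 0 to 1.04, on 31 cells with both. Klf6 and Atf3 gave ratios of 1.08 to 1.45 among fibroblasts and 1.03 to 1.39 among macrophages. In counts this sparse such ratios are given as a description only.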

How the data were processed

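Single cells of rat subcutaneous fascia were profiled by droplet sequencing of the 3′ ends of transcripts in 4 libraries. Per the labels and the submitters' processing notes, the authors used Cell Ranger 6.0.1 with STAR. The notes give mRatBN7.2 and GRCh38.p13 as builds without saying which was used for what. Each deposited matrix holds UMI counts that were not normalized, and the other deposited files hold gene and barcode names. A cell was kept with at least 300 genes, 500 UMIs and at most 20% mitochondrial UMIs, and the highest Scrublet scores (scanpy 1.11.5) were removed at 0.8% per 1000 cells. No doublet removal before deposit is stated. Cells were gated by numbers of detected markers, 30136 in all, and 2261 (6.98%) stayed ungated. Between 19 and 32 barcodes were shared by any 2 libraries, at most 0.36% of the smaller.

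Counts were summed per library and gate, with the library as replicate, where every library held at least 30 cells. EdgeR 4.0.16 (R 4.3.3) was run with TMM scaling, filterByExpr at a minimum count of 10 and Benjamini-Hochberg adjustment over all genes of a gate. Levels between classes and differences in change used library as a block. CPM are TMM-scaled within a gate unless stated, and the summed CPM of marker lists use library totals alone. Shares were compared at 2000 UMIs per cell with exact permutation over libraries and 95% Clopper-Pearson intervals (scipy 1.17.1). DESeq2 1.42.0, other scalings, filters, gates and left-out libraries were alternatives. The fits were tested on simulated data.

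The members, gene lists and tests were chosen with earlier results of these data known. Named genes are the members, list genes called in a gate with the largest changes first, and the 3 genes most correlated with each member on log2(CPM + 10) among genes with a mean of at least 20 CPM. Other list genes given with values, Fos, Fosb, Srf, Nos3, Vcam1, Thbd, Sele, Mrc1 and Ccl5, were added after their values were seen. Promoter sequences come from RefSeq (GRCr8), and no coordinates of the authors' build are given. A result of the list of endothelial targets in stroma is not reported here.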

Additional observations from a re-analysis of the deposited data

Results flagged for a closer look

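Between the classes, 2 changes differed by their own test. For Klf6, the change in endothelium minus that in stroma was -0.93 on the log2 scale (SE 0.23, edgeR adjusted p = 0.0289), with estimates of 0.60 ± 0.21 in endothelium (not called) and 1.57 ± 0.14 in stroma (called). It was not called without acupuncture replicate 2 (adjusted p = 0.616), without dysentery replicate 2 (adjusted p = 0.0970) or with the fibroblast gate (adjusted p = 0.0513). For Klf4, the change in endothelium minus that in leukocytes was -1.15 (SE 0.22, edgeR adjusted p = 0.00342), with estimates of 0.16 ± 0.17 in endothelium (not called) and 1.32 ± 0.15 in leukocytes (called). It was not called without acupuncture replicate 1 (adjusted p = 0.165). In both cases the endothelial sums rest on 47 to 190 cells per library, and no explanation was tested.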

How the results depend on the processing

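Of the alternative values, 378 kept their direction and their side of the threshold or stayed within the spread, 24 fell short of the threshold, 27 newly passed it, 16 turned in sign and 35 otherwise moved. The rise of Klf4 and Klf6 in macrophages was called under every alternative run on that gate. The cause of each change below was not tested unless stated. Precision is limited by 2 libraries a group and, in endothelium, by 47 to 190 cells a library.

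The replicate numbers of the labels are shared by the groups, but with 2 pairs and correlations of same-numbered deviations of 0.0978 in endothelium, 0.135 in stroma and 0.295 in leukocytes they are not taken to pair the samples. With the replicate number as a block edgeR called 340 genes in endothelium (71 without), 524 in stroma (255) and 268 in leukocytes (155). The block also gave endothelial Klf6 0.59 (adjusted p = 0.0269), Klf10 1.08 (adjusted p = 0.000329) and Klf13 0.011, and stromal Klf10 0.63 (adjusted p = 0.0425).

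With DESeq2 the calls numbered 35 in endothelium, 837 in stroma and 1230 in leukocytes, stromal Klf10 was called at 0.63 (adjusted p = 0.0185) and leukocyte Klf6 at 0.95 (adjusted p = 0.00873). Without a filter on low counts there were 229, 461 and 926 calls in the same order, and endothelial Klf10 at 1.08 (adjusted p = 0.00764) and leukocyte Klf6 at 0.98 (adjusted p = 0.0459) passed. With library totals only, leukocytes gave 55 calls, leukocyte Klf4 fell short at 1.25 (adjusted p = 0.0598), and Klf13 turned to 0.093 in endothelium and -0.058 in leukocytes. That scaling moved the median of all genes by about 0.1 in endothelium, to 0.0999. It gave levels between endothelium and stroma of -0.47 for Klf6 and -0.26 for Klf13, neither called, and between endothelium and leukocytes of 0.64 for Klf2, called.

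A mitochondrial limit of 10% gave 102 leukocyte calls, leukocyte Klf4 at 1.33 (adjusted p = 0.0508) and endothelial Klf13 at 0.026. With doublets kept there were 6 calls in endothelium and 90 in leukocytes, with leukocyte Klf4 at 1.32 (adjusted p = 0.0535). Stricter gates gave 273 leukocyte calls and endothelial Klf13 at 0.0030. Among alternatives chosen after seeing the data, fibroblasts without a Has1 UMI gave -0.41 for Klf2, -0.25 for Klf4 and 0.44 for Klf6, none called, those with Cd34 and Pdgfra gave 0.73 for Klf10, and macrophages of lower mitochondrial content gave 1.15 for Klf6, both called. The difference in change of Klf6 was -0.93 with the finer gates and not called. The share of stromal cells with a Klf6 UMI differed by -3.72 percentage points without thinning.

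Leaving out each library in turn, the calls ranged from 129 to 259 in endothelium, 39 to 1011 in stroma and 0 to 1054 in leukocytes. The 0 calls of edgeR came without acupuncture replicate 1 and also without acupuncture replicate 2, with 1523 and 1241 genes at an unadjusted p under 0.05. In endothelium Klf10 ranged from 0.68 to 1.95 and Klf13 from -0.55 to 0.32. In stroma Klf2 ranged from -0.084 to 0.66, Klf6 from 1.47 to 1.68 and Klf10 from 0.49 to 0.78, and in fibroblasts Klf2 from -0.075 to 0.67 and Klf6 from 1.47 to 1.69. In leukocytes Klf2 ranged from -0.12 to 0.62, Klf4 from 1.17 to 1.46, Klf6 from 0.65 to 1.35 and Klf13 from -0.28 to 0.41. The difference in change ranged from -1.18 to -0.73 for Klf6 between endothelium and stroma and from -1.26 to -1.0001 for Klf4 between endothelium and leukocytes. The number of factors with a called difference ranged from 0 to 2 between endothelium and stroma, 0 to 3 between endothelium and leukocytes and 0 to 1 between stroma and leukocytes. Levels of endothelium minus stroma ranged from 0.61 to 1.02 for Klf2, from -1.02 to -0.55 for Klf6 and from -0.70 to -0.41 for Klf13. Levels of endothelium minus leukocytes ranged from -0.67 to -0.15 for Klf4 and from 0.54 to 0.86 for Klf10. Levels of stroma minus leukocytes ranged from -0.74 to -0.28 for Klf2 and from 0.48 to 1.05 for Klf4.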
